A study of Mus musculus with 12 samples.

Results

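Receptors for extracellular ATP and a surface enzyme that removes it were followed in the cochlea of wild-type and *Gjb2* 35delG homozygous mice. The 10 genes were taken by name from the 37432 genes of the expression table. They are the P2X receptor genes *P2rx2*, *P2rx3*, *P2rx4* and *P2rx7*, the P2Y receptor genes *P2ry1*, *P2ry2*, *P2ry4*, *P2ry6* and *P2ry12*, and *Entpd1*, whose product breaks ATP and ADP down at the cell surface. They were chosen because ATP that leaves cells through connexin hemichannels acts on these receptors, and *Gjb2* codes for connexin 26. RNA-seq libraries were made at P14 from 3 pieces of the cochlea, its apical, middle and basal turn, with 2 repeats of each genotype and turn, 12 libraries in all. The homozygous mice were males derived from embryonic stem cells by tetraploid complementation, on a background that is almost C57BL/6J, born by cesarean section and raised by ICR females. The wild-type mice were bought males of matched age, so that genotype and origin of the mice cannot be told apart in any of the comparisons. Each cochlea had been divided into 3 equal pieces, and how many animals or stem cell lines went into a library is not given in the sources used here. Since a cochlea gave all 3 turns, libraries of different turns may share animals, whereas the fits took them as independent. The repeats are called biological, but where they do not stand for separate animals the p-values measure only the spread between these libraries.

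P2X receptors are cation channels that open when ATP binds, and P2Y receptors are G protein-coupled receptors that answer to ATP, ADP, UTP or UDP. In the developing cochlea, supporting cells release ATP through connexin hemichannels, and the receptors on these and neighboring cells turn it into calcium waves that spread along the epithelium before hearing begins. Ectonucleotidases such as ENTPD1 end the signal by degrading the nucleotide, and mutations of human *P2RX2* cause progressive hearing loss.

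Levels are given as FPKM, fragments scaled by transcript length and by the mapped fragments of the library, further divided by 1 factor per library (0.917 to 1.06), and are called scaled FPKM. Genotypes were compared with limma on log2(scaled FPKM + 1), where a fold change understates the change of a low gene. Of the 10 genes, 8 were tested. *P2rx3* and *P2ry4* did not reach 1 FPKM in 2 libraries, the minimum for a test. The thresholds of the study, an adjusted p under 0.01 with a fold change over 2, define what is named called here, and adjustment was over all 16215 genes tested. The depth of a library is unknown, since no steps of whole reads are visible in them. *Gjb2* ranged from 140 to 434 scaled FPKM with the wild-type genotype and from 58.6 to 451 with the homozygous one. These levels do not check the genotype labels, as a gene's FPKM does not show a deletion of a single base.

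The libraries differed in levels of cell type markers as well as in genotype. Between the repeats of a group, 1.55% (wild-type apical turn) to 14.4% (wild-type basal turn) of the tested genes differed by more than 2-fold. The wild-type basal repeats thus stood farthest apart, and basal calls of receptor genes and other genes of ATP signaling are given with each of them left out. The summed level of 12 markers of supporting cells and sulcus lay between 1141 and 3833 in the other 5 groups, and at 273 and 414 in the homozygous basal turn. *Gjb2* and *Gjb6* are among these 12 markers, so the sum is in part a level of the mutated gene and its partner. The sum of 15 hair cell markers was 63.5 and 64.9 in that group, the lowest of all. The sum of 15 neuron markers was 4171 and 4193 there, the highest of all, and 46.7 to 3145 elsewhere. The sum of 11 Schwann cell and myelin markers was 836 and 853 in the homozygous middle turn, 9853 and 15546 in the homozygous basal turn, and 1527 to 21354 in the wild-type libraries. Transcripts of these cell types were present in each group, as no marker of these 4 lists was at 0 in both repeats of any group. In whole tissue of this kind, fewer cells of a type and less RNA per cell cannot be told apart.

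*P2rx2* had the highest level of the 10 genes, with a mean of 58.0 scaled FPKM over the 12 libraries. It was followed by *P2rx4* (14.1), *P2ry1* (9.61), *P2ry2* (8.05), *P2rx7* (5.41), *Entpd1* (4.45), *P2ry12* (3.39) and *P2ry6* (2.17). *P2rx3* (0.554) and *P2ry4* (0.0131) were close to the floor of the table. FPKM are per length, so that these means can be set side by side. The ranges over libraries of neighbors in this order overlapped down to *P2ry6*. For *P2rx2* and *P2rx4* this was only through the homozygous basal libraries. In the others *P2rx2* was at least 26.6 and *P2rx4* at most 17.0. The ranges of *P2ry6* (1.10 to 3.05) and *P2rx3* (0.147 to 1.63) overlapped as well, and *P2ry4* (0 to 0.0758) lay below *P2rx3* in every library.

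**Figure D1:**
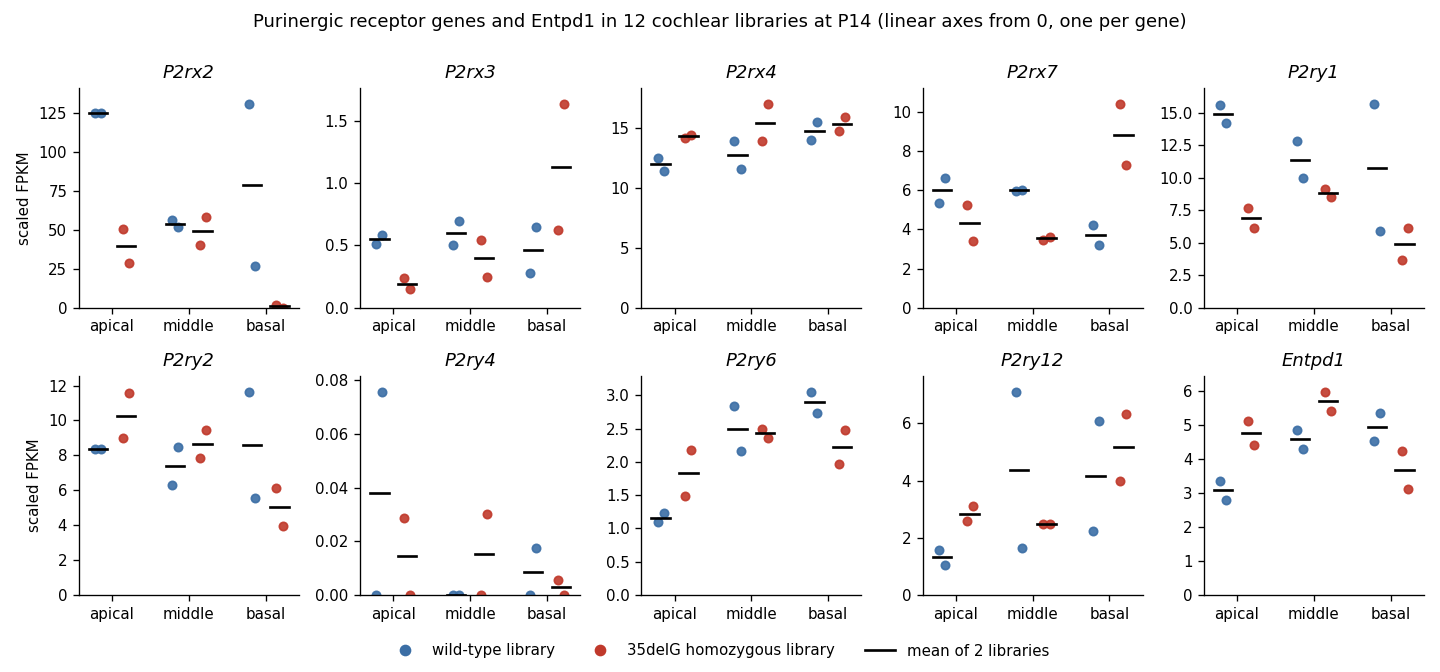
Scaled FPKM (vertical axes, linear, from 0, a separate scale for each gene) of the 10 genes in the 3 turns. Each point is a library and each bar the mean of 2 libraries. *P2rx2* is near 0 in both homozygous basal libraries, *P2rx7* is highest there, and *P2rx4* is the most even of the tested genes.

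The basal turn held the only called genotype difference of a single turn. In that turn 1 of the 8 tested genes was called, beside 4.29% of all genes tested. In the apical turn 0 of 8 were called beside 0.179% of all genes, and in the middle turn 0 of 8 beside 0.179%. At the same thresholds the paper, by DESeq2 on read counts, reported more genes in each turn, with the most in the middle turn. By limma at an unadjusted p under 0.05 there were 3 of the 8 genes for the apical, 1 for the middle and 3 for the basal turn, beside 16.4%, 25.4% and 32.4% of all genes. Over the mean of the 3 turns 0 of 8 were called beside 0.376% of all genes, with 2 (and 18.6% of all genes) at an unadjusted p under 0.05. The median log2 fold change of the 8 genes was 0.25 (apical), −0.08 (middle) and −0.31 (basal), beside −0.03, 0.04 and −0.02 over all genes. The 2 repeats of each genotype did not overlap for 8 of the 8 genes (apical), 4 (middle) and 4 (basal). The same held for 59%, 59.5% and 54% of all genes tested.

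*P2rx2* codes for an ATP-gated channel of hair cells, supporting cells and spiral ganglion neurons. It is located on chromosome 5 at chr5:110339812-110343212 (minus strand, GRCm38). Its level was 125 and 125 scaled FPKM in the wild-type apical turn, 56.4 and 51.7 in the middle turn, and 131 and 26.6 in the basal turn. From apical to basal, the homozygous libraries had 50.7 and 28.9, 40.6 and 58.3, and 1.88 and 0.0846. Both homozygous basal libraries were thus below all 10 other libraries, while in the middle turn the genotypes overlapped. In the basal turn *P2rx2* fell, from 78.7 ± 73.7 (SD, n = 2) to 0.984 ± 1.27, which is a ratio of means of 0.0125. Its log2 fold change was −5.09 ± 0.68 (SE, adjusted p = 0.00505). In the apical turn the homozygous libraries were both lower, with a log2 fold change of −1.68 ± 0.68 that did not pass (adjusted p = 0.270). In the middle turn the difference was −0.15 ± 0.68 (adjusted p = 0.915). Averaged over the turns it was −2.31 ± 0.39, with an adjusted p of 0.0243 that did not reach the threshold.

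The basal call of *P2rx2* lay close to the threshold. The SE of 0.68 came from a spread pooled over all 6 groups and is the same in each turn. Repeats differed in spread by group, most in the wild-type basal turn. With only the basal groups fitted, *P2rx2* was not called, and 0 of 16215 genes were. With only the apical groups fitted, 93 genes were called beside 29 as reported, *P2rx2* not among them. The wild-type basal repeats differed 4.92-fold, and without the second of them the log2 fold change was −6.22 (adjusted p = 0.000717), whereas without the first it was −3.96 (adjusted p = 0.0111, not called). It was also not called without either homozygous basal library or any of the 4 apical libraries, with −5.80 to −4.39 as the range of values. Its direction was the same in each of these fits.

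The genotype difference of *P2rx2* was itself compared between turns. It was 4.94 ± 0.97 lower on the log2 scale in the basal than in the middle turn, with log2 values of −5.09 and −0.15 (adjusted p = 0.00852, called). This call held without either wild-type basal library (−3.81 and −6.07) and was lost without any 1 of the 10 other libraries (−5.65 to −4.24, adjusted p from 0.0110 to 0.0285). In this comparison 2 of the 8 genes were called beside 8.91% of all genes. Between the basal and the apical turn the difference was −3.41 ± 0.97 (adjusted p = 0.0521, not called), with 0 of 8 genes called beside 0.796% of all genes, and 4 of the 8 beside 28.4% of all genes at an unadjusted p under 0.05. Between the middle and the apical turn it was 1.53 ± 0.97 (adjusted p = 0.660), and there 0 of 8 were called beside 0% of all genes, with 0 of the 8 and 1306 of all genes at an unadjusted p under 0.05.

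Marker levels are set beside *P2rx2* here. The supporting cell and sulcus sum was 3482 and 1141 in the 2 wild-type basal libraries and 414 and 273 in the homozygous ones, the same order as that of *P2rx2*. *Ceacam16*, a gene of the tectorial membrane made by supporting cells and the marker of highest mean in that list, was 2268, 397, 10.1 and 1.02 in these 4 libraries and made up most of the sum in the first. The mean log2 level of the 12 markers, which weights them equally, was 4.77 and 4.86 (wild-type) against 3.24 and 2.47 (homozygous), so that it did not follow *P2rx2* between the wild-type repeats. Within the list 3 of 12 markers were called lower and 0 higher when the genotypes were compared there. *Gjb2* and *Gjb6* belong to the list and were not among those called. Of all 16215 genes tested, 286 were called lower and 410 higher in the same comparison. Of 15 hair cell markers 3 were called lower and 0 higher. Of 15 neuron markers 0 were called, and all 15 had a positive log2 fold change. The counts of hair cell and neuron markers called depended on which wild-type basal library was left out. The count of all genes called did so as well, whereas that of supporting cell markers did not. In the apical turn, where *P2rx2* was lower in both homozygous libraries, the supporting cell sum was 3541 and 3833 (wild-type) against 2915 and 2300 (homozygous). The mean log2 level of the same list was not lower, at 5.96 and 6.05 against 6.43 and 6.03, and *Tecta*, another gene of the tectorial membrane, was called higher there (log2 fold change 5.19 ± 0.52, adjusted p = 0.00517). The hair cell sum in the apical turn was 721 and 715 (wild-type) against 434 and 381 (homozygous). The mean log2 level of that list was 4.57 and 4.59 against 3.88 and 3.52. In the middle turn, where *P2rx2* overlapped between genotypes, the hair cell sum was 81.7 and 189 (wild-type) against 288 and 490 (homozygous). The part of these markers in the *P2rx2* result was not tested.

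**Figure D2:**
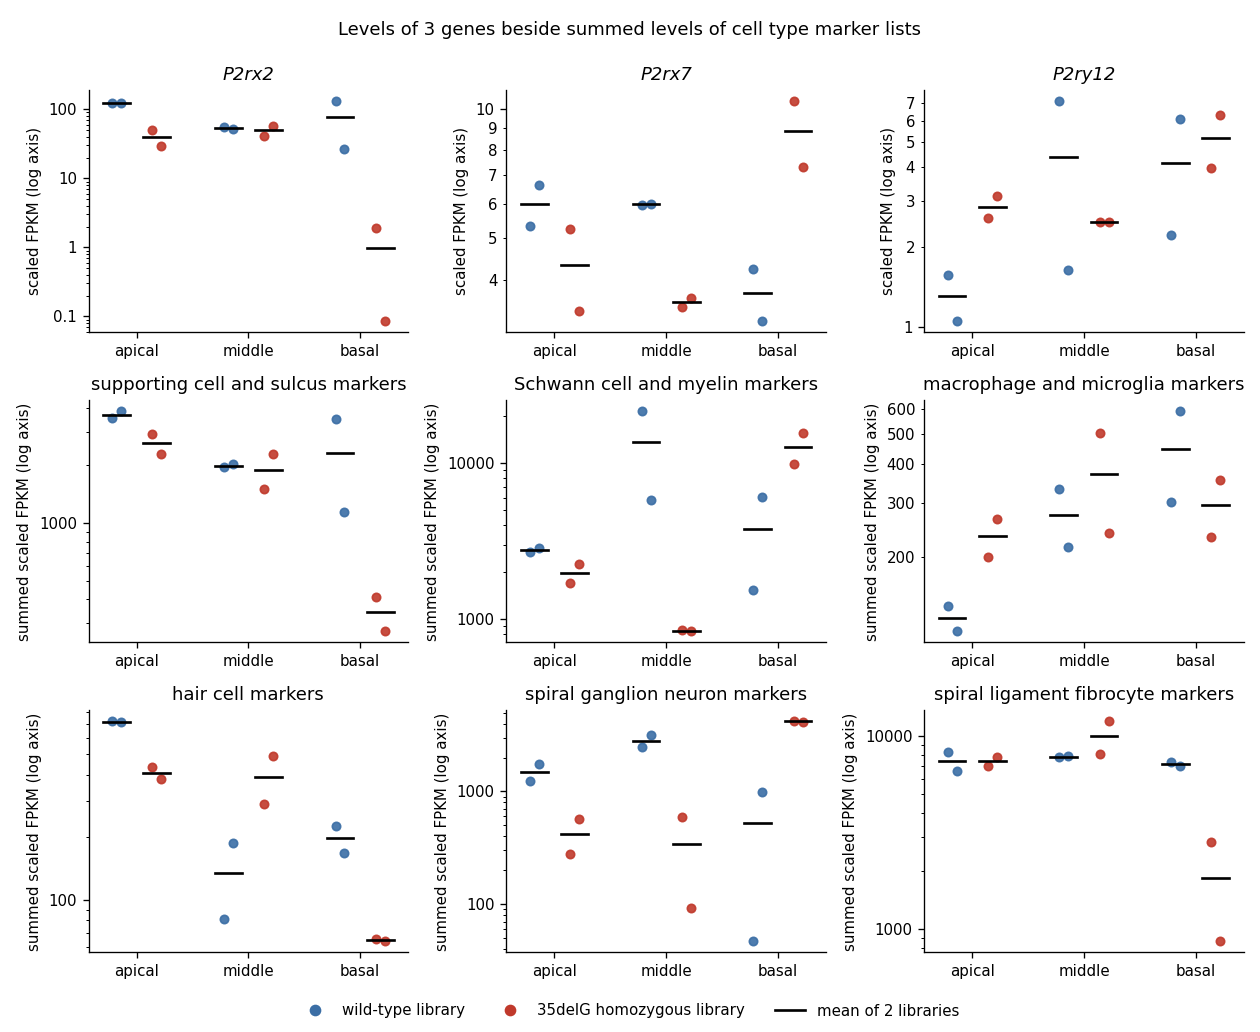
Scaled FPKM of *P2rx2*, *P2rx7* and *P2ry12* (top) and summed scaled FPKM of 6 lists of cell type markers (middle and bottom) by turn, on log axes. Points are libraries and bars the mean of 2. The homozygous basal libraries are lowest for *P2rx2* and for the supporting cell, hair cell and fibrocyte sums, and highest for *P2rx7* and the neuron sum.

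*P2rx7* codes for a channel that opens at high ATP, is known in immune and glial cells, and lies on chromosome 5 at chr5:122643911-122691432 (plus strand, GRCm38). The RefSeq promoter windows (GRCm38.p6) list 2 start sites for it, and a gene's FPKM adds up transcripts from both. The 250 bases before each start are shown, since this gene's genotype difference changed between turns while its FPKM cannot say which start the transcripts came from. Capitals mark GC-boxes (GGGCGG on either strand), sites of the kind bound by Sp1-family factors.
P2rx7 upstream start, chr5:122643677-122643926, plus strand: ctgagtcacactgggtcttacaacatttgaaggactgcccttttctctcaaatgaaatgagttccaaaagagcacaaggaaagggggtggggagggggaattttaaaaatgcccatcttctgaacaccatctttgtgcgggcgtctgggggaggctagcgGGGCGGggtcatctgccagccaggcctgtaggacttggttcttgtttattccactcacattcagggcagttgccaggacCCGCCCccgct
P2rx7 downstream start, chr5:122650133-122650382, plus strand: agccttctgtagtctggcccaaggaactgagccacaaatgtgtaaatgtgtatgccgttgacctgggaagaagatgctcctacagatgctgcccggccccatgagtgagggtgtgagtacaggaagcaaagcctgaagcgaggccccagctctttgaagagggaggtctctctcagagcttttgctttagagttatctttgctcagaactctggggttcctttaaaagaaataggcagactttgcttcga
The upstream window holds 2 GC-boxes and the downstream window 0. Of all 32851 promoter windows of this length in the table, 32.7% hold at least 1. A match of letters is a description of the sequence and no evidence of binding.

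The level of *P2rx7* was 5.35 and 6.65 scaled FPKM in the wild-type apical turn, 5.98 and 6.01 in the middle turn, and 4.25 and 3.21 in the basal turn. From apical to basal, the homozygous libraries had 5.25 and 3.40, 3.47 and 3.63, and 10.4 and 7.30. Homozygous libraries were the lower ones in the apical and middle turns and the higher ones in the basal turn, and the genotypes overlapped in none of the 3. Taken turn by turn, 59% (apical), 59.5% (middle) and 54% (basal) of all genes tested did not overlap either. The homozygous basal libraries were the 2 highest of the 12. In the basal turn the mean was 3.73 ± 0.733 for wild-type and 8.85 ± 2.19 for homozygous mice (SD, n = 2), a ratio of 2.37. The log2 fold change of 1.05 ± 0.23 had an adjusted p of 0.0169, over the threshold of 0.01. In the middle turn it was −0.62 ± 0.23 (adjusted p = 0.138) and in the apical turn −0.41 ± 0.23 (adjusted p = 0.420), neither of them called. The difference between turns did pass for the basal against the middle turn, at 1.67 ± 0.32 (adjusted p = 0.00834). For the basal against the apical turn it was 1.46 ± 0.32 (adjusted p = 0.0246, not called). The mean over the turns was 0.01 ± 0.13. The call between turns was lost in every fit that left out 1 of the 12 libraries, with values from 1.44 to 1.90 and adjusted p from 0.0102 to 0.0288, and its sign stayed positive in all of them.

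Sums of 2 marker lists differed between genotypes the same way as *P2rx7* in the middle and basal turns. The neuron sum was 2475 and 3145 (wild-type) against 593 and 91.8 (homozygous) in the middle turn, 46.7 and 994 against 4193 and 4171 in the basal turn, and 1235 and 1765 against 277 and 568 in the apical turn. The Schwann cell and myelin sum was 21354 and 5822 (wild-type) against 853 and 836 (homozygous) in the middle turn, and 1527 and 6056 (wild-type) against 9853 and 15546 (homozygous) in the basal turn. In the apical turn it was 2685 and 2864 (wild-type) against 1694 and 2243 (homozygous). Between the repeats of the basal turn the Schwann cell and myelin sum ran opposite to *P2rx7* in both genotypes, and the neuron sum did so in the wild-type. Of the 11 markers 2 were called higher and 0 lower in the basal turn, and 4 were called higher in the basal against the middle turn. Of all 16215 genes tested, 410 and 1027 were called higher in these comparisons. Of the 18 macrophage and microglia markers 0 were called in any turn, and in the basal turn 15 of 18 had a negative log2 fold change (median −0.45). The part of these markers in the *P2rx7* result was not tested.

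**Figure D3:**
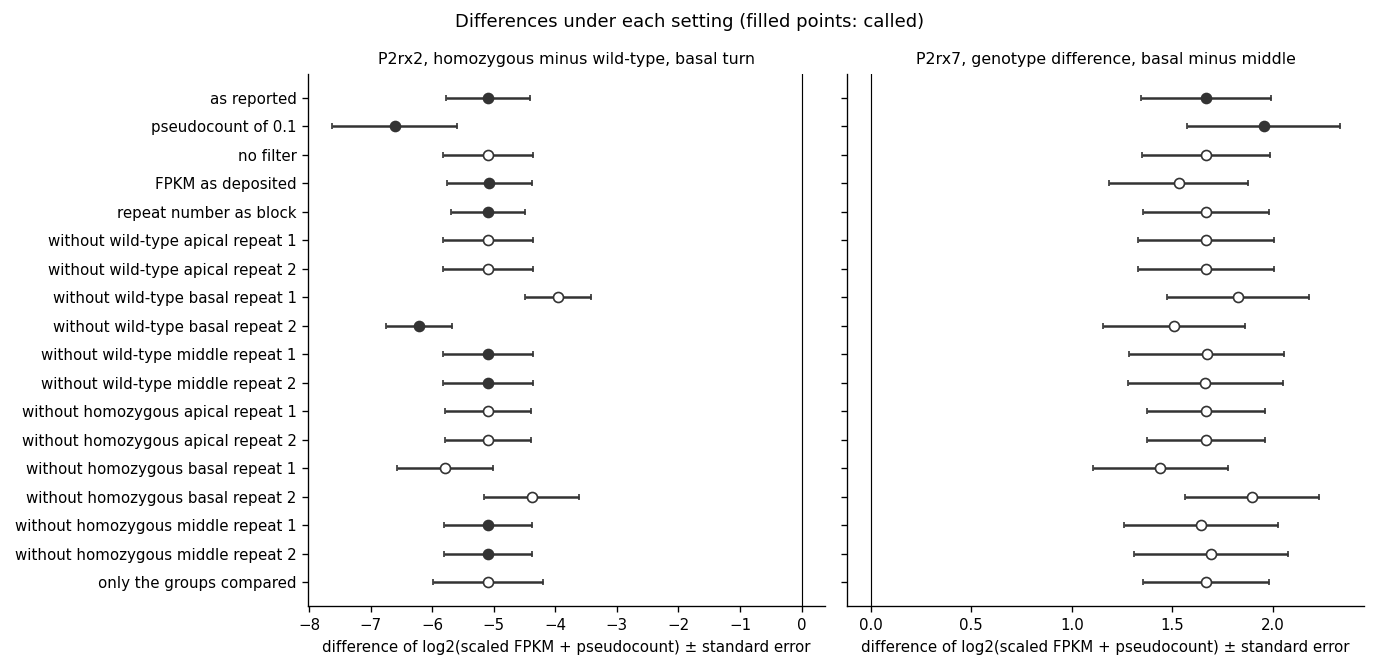
Log2 difference (horizontal axes, points) and standard error (bars) of *P2rx2* in the basal turn (left) and of the basal minus middle genotype difference of *P2rx7* (right), for the reported fit and each alternative. Filled points passed the thresholds. All points keep their side of 0, and *P2rx7* was called only as reported and with a pseudocount of 0.1.

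*P2rx4*, which codes for a widely expressed ATP-gated channel found on lysosomes and on the cell surface, was the most even of the tested genes. It lies at chr5:122707544-122729738, 16.1 kb from *P2rx7* on the same strand. Its level was 12.5 and 11.4, 13.9 and 11.6, and 14.03 and 15.5 scaled FPKM in the wild-type apical, middle and basal turns. It was 14.2 and 14.4, 13.96 and 17.0, and 14.7 and 16.0 in the homozygous turns. Its lowest and highest libraries, 11.4 and 17.0, were closer in ratio than those of any other tested gene of the 10. The log2 fold changes from apical to basal were 0.24 ± 0.15 (adjusted p = 0.476), 0.26 ± 0.15 (adjusted p = 0.316) and 0.05 ± 0.15 (adjusted p = 0.846).

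*P2rx3*, an ATP-gated channel gene of sensory neurons, was below 1 scaled FPKM in 11 of 12 libraries. The exception was the second homozygous basal library at 1.63, beside 0.621 in the first. In the wild-type basal turn it was 0.276 and 0.645, and all other libraries lay between 0.147 and 0.697. It was not tested. The neuron marker sum was highest in the homozygous basal libraries too (4193 and 4171). *Ssrp1*, a chromatin factor gene on the opposite strand that overlaps *P2rx3*, was at 25.1 to 43.5 scaled FPKM. Of the 75-base windows of *P2rx3* transcripts, 0% occur in transcripts of *Ssrp1* or of another gene.

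**Figure D4:**
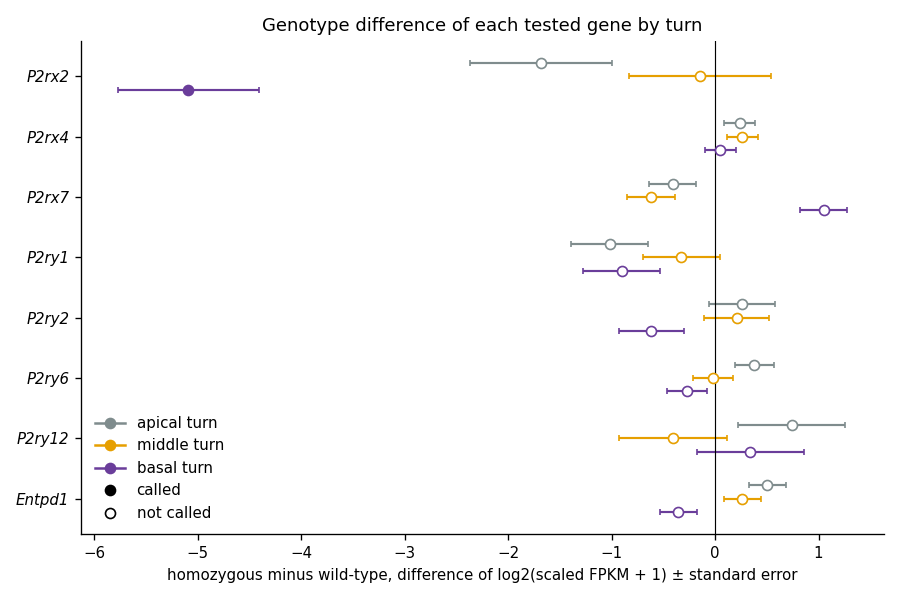
Difference of log2(scaled FPKM + 1) between homozygous and wild-type libraries (horizontal axis) with its standard error (bars) for the 8 tested genes in the 3 turns. Filled points were called. *P2rx2* in the basal turn (−5.09) is the only filled point, and *P2rx7* lies to the right of 0 in the basal turn (1.05) and to the left in the other turns.

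Among the P2Y genes, *P2ry1* codes for an ADP receptor coupled to phospholipase C, which is known for its role in the spontaneous activity of the developing cochlea. It lies at chr3:61002795-61008982 on the plus strand. Its level was 15.6 and 14.2 scaled FPKM in the wild-type apical turn, 12.8 and 9.97 in the middle turn, and 15.6 and 5.91 in the basal turn. From apical to basal, the homozygous libraries had 7.67 and 6.10, 9.12 and 8.54, and 3.64 and 6.11. The homozygous libraries were lower without overlap in the apical and middle turns, and overlapped the wild-type ones in the basal turn, where the second wild-type library lay between them. Of all genes tested, 59% (apical) and 59.5% (middle) did not overlap either. In the apical turn the means were 14.9 ± 0.953 and 6.88 ± 1.11 (SD, n = 2), with a log2 fold change of −1.02 ± 0.37 that was not called (adjusted p = 0.225). The values were −0.32 ± 0.37 (adjusted p = 0.624) in the middle turn and −0.90 ± 0.37 (adjusted p = 0.131) in the basal turn. Over the mean of the turns it was −0.75 ± 0.22 (unadjusted p = 0.00726, adjusted p = 0.108, limma). A single library decided the basal value. Without the second wild-type basal library it was −1.54 ± 0.28 (adjusted p = 0.00607) and would be called, and without the first it was −0.27 ± 0.28 (adjusted p = 0.622). The supporting cell sum was 3482 and 1141 in the 2 wild-type basal libraries, mostly through *Ceacam16* (2268 and 397), whereas the mean log2 level of that list was 4.77 and 4.86. The part of these markers was not tested. Of the 75-base windows of *P2ry1* transcripts, 21.4% also occur in *Gm37035*, an antisense gene. That gene was at 0 to 0.109 scaled FPKM, and reads of the overlap cannot be told apart without strand.

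*P2ry2* codes for a receptor for ATP and UTP that raises cell calcium. Its level was 8.34 and 8.38 scaled FPKM in the wild-type apical turn, 6.29 and 8.49 in the middle turn, and 11.6 and 5.55 in the basal turn. The homozygous values were 8.98 and 11.6, 7.83 and 9.43, and 6.14 and 3.93 in the same order. The genotypes overlapped in the middle and basal turns. The log2 fold changes were 0.26 ± 0.32 (adjusted p = 0.742), 0.21 ± 0.32 (adjusted p = 0.721) and −0.62 ± 0.32 (adjusted p = 0.217) from apical to basal. The basal value was −1.09 without the second wild-type basal library (adjusted p = 0.0248) and −0.14 without the first (adjusted p = 0.821). *P2ry4*, the gene of another UTP receptor, was listed at 0 in 7 of 12 libraries and reached at most 0.0758 scaled FPKM, so no comparison was made.

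*P2ry6*, which codes for a UDP receptor of phagocytes, and *P2ry12*, an ADP receptor gene of microglia and platelets, were low in all libraries. *P2ry6* was at 1.10 and 1.23 scaled FPKM in the wild-type apical turn, 2.84 and 2.16 in the middle turn and 3.05 and 2.73 in the basal turn. The homozygous libraries had 1.49 and 2.18, 2.50 and 2.36, and 1.97 and 2.47 in that order. The wild-type apical libraries were the 2 lowest of the 12. The genotype differences were 0.38 ± 0.19, −0.02 ± 0.19 and −0.28 ± 0.19 from apical to basal, with adjusted p of 0.368, 0.960 and 0.367.

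*P2ry12* varied more between repeats than between genotypes in the middle turn. It was at 1.57 and 1.05 scaled FPKM in the wild-type apical turn, 7.10 and 1.64 in the middle turn and 2.22 and 6.08 in the basal turn. The homozygous libraries had 2.57 and 3.11, 2.48 and 2.49, and 3.98 and 6.33. The genotype differences were 0.74 ± 0.52 (adjusted p = 0.525), −0.41 ± 0.52 (adjusted p = 0.662) and 0.34 ± 0.52 (adjusted p = 0.696) from apical to basal. *P2ry12* overlaps *Med12l*, a gene on the opposite strand, which was at 1.29 to 4.94 scaled FPKM, and 0% of the 75-base windows of *P2ry12* transcripts occur in another gene. The high repeats of the wild-type middle (21354 against 5822) and basal turns (6056 against 1527) were also the high ones for the Schwann cell and myelin sum. That of the macrophage and microglia markers was 332 against 216 and 590 against 301 in the same libraries, and the part of either list was not tested.

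*Entpd1* codes for the ecto-enzyme CD39 of endothelial and immune cells and lies at chr19:40612397-40741602 in the coordinates of the table. Its level was 3.35 and 2.79 scaled FPKM in the wild-type apical turn, 4.86 and 4.29 in the middle turn, and 4.52 and 5.34 in the basal turn. The homozygous libraries had 5.11 and 4.41, 5.96 and 5.41, and 4.22 and 3.11. They were the higher ones in the apical and middle turns and the lower ones in the basal turn, with no overlap in any turn. In single turns, 59% (apical), 59.5% (middle) and 54% (basal) of all genes tested did not overlap either. None of the differences was called, at 0.50 ± 0.18 (apical, adjusted p = 0.216), 0.26 ± 0.18 (middle, adjusted p = 0.394) and −0.35 ± 0.18 (basal, adjusted p = 0.211). The basal minus apical difference was −0.86 ± 0.25 (adjusted p = 0.0592, not called). The macrophage and microglia sum was 140 and 116 (wild-type) against 201 and 266 (homozygous) in the apical turn. The endothelial sum of 10 markers was 154 to 214 (wild-type) and 126 to 143 (homozygous) there. It was 98.6 and 117 against 164 and 164 in the middle turn, and 136 and 113 against 88.65 and 96.8 in the basal turn. The macrophage and microglia sum was 332 and 216 against 504 and 239 (middle), and 301 and 590 against 233 and 355 (basal). The part of both lists was not tested.

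Within the wild-type mice the 8 genes were compared between turns. In the middle against the apical turn 0 of 8 were called beside 0.0863% of all genes (2 of the 8 and 3219 of all genes at an unadjusted p under 0.05 by limma). The basal against the apical turn gave 0 of 8 beside 0.0863% (3 of the 8 and 3297 of all genes at that unadjusted p). In the basal against the middle turn 0 of 8 were called beside 0% of all genes, with 1 of the 8 and 2472 of all genes at an unadjusted p under 0.05 by limma. The smallest unadjusted p of the 8 was that of *P2ry6* in the basal against the apical turn, with 2.89 ± 0.227 against 1.16 ± 0.0882 scaled FPKM (SD, n = 2) and a log2 difference of 0.85 ± 0.19 (adjusted p = 0.0766). *P2rx2* was lower in both wild-type middle than in both apical libraries, at −1.20 ± 0.68 (adjusted p = 0.341). The macrophage and microglia sum, 116 to 140 in the apical and 301 to 590 in the basal turn of the wild-type, ran with *P2ry6*, and its part was not tested.

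The other genes of ATP signaling were read from 7 lists of 57 genes. No gene of these lists was called in the apical or the middle turn. Of the 3 other P2X genes, *P2rx1* and *P2rx5* were not tested. *P2rx6*, which codes for a P2X subunit of neurons and muscle, was at 0.613 and 3.18 scaled FPKM (wild-type) against 17.5 and 10.8 (homozygous) in the basal turn. It was at 6.01 and 9.66 (wild-type) against 2.83 and 1.25 (homozygous) in the middle turn. Its genotype difference was 2.51 ± 0.47 in the basal turn (adjusted p = 0.0105, not called) and differed from that of the middle turn by 4.07 ± 0.67 (adjusted p = 0.00453, called). Without the second wild-type basal library the basal value was 3.20 (adjusted p = 0.00196) and would be called, and without the first it was 1.82 (adjusted p = 0.0447). The difference between turns was called in 6 of the 12 fits that left out 1 library, with values from 3.38 to 4.76. The neuron sum was 46.7 and 994 (wild-type) against 4193 and 4171 (homozygous) in the basal libraries, and its part was not tested. Of the 3 other P2Y genes 2 were tested and 0 called, and *P2ry13*, an ADP receptor gene 5.39 kb from *P2ry12* and the highest of them, had a mean of 1.82. Of the 4 adenosine receptor genes 2 were tested and 0 called, and *Adora1* was the highest at 4.26.

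Of the 8 other ectonucleotidase genes all were tested and 0 were called in any turn. *Enpp2*, whose product makes lysophosphatidic acid, had the highest mean at 88.5 scaled FPKM and a basal difference of 0.03 ± 0.80. In the basal turn 6 of the 8 had a negative log2 fold change, with a median of −0.25 (−0.02 over all genes). Of the 6 tested genes of adenosine handling, 1 was called in the basal turn. It was *Slc29a2*, a nucleoside transporter gene, with 1.09 and 1.56 scaled FPKM (wild-type) against 5.50 and 3.72 (homozygous) in the basal turn, and it rose by 1.26 ± 0.23 on the log2 scale (adjusted p = 0.0098). Its call held in 1 of 12 fits that left out 1 library, the one without the second wild-type basal library (1.41, adjusted p = 0.00876), and without the first it was 1.11 (adjusted p = 0.0519). *Slc29a1*, the highest of this list at 34.2, was not called in any turn.

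The genes of ATP release included the connexins themselves. The summed level of these 12 genes was 477 and 472 (wild-type) against 687 and 828 (homozygous) in the apical turn. It was 409 and 518 against 658 and 969 in the middle turn, and 811 and 677 against 407 and 343 in the basal turn. By qPCR the paper reported less *Gjb2* and *Gjb6* transcript in the homozygous cochlea at P14, not divided by turn. Of 10 genes of the list that were tested, 0 were called in a single turn, and in the basal against the middle turn 1 was called higher and 1 lower. *Gjb6*, which codes for connexin 30, was at 292 and 271 scaled FPKM (wild-type) against 166 and 154 (homozygous) in the basal turn. In the middle turn it was at 124 and 176 (wild-type) against 285 and 448 (homozygous). Its genotype difference was −0.81 ± 0.28 in the basal and 1.27 ± 0.28 in the middle turn, and these differed by −2.08 ± 0.39 (adjusted p = 0.00747). *Gjb2* had −1.94 ± 0.47 (adjusted p = 0.0238) in the basal and 0.81 ± 0.47 (adjusted p = 0.319) in the middle turn, and its difference between the turns, −2.75 ± 0.66, was not called (adjusted p = 0.0195). The pannexin gene *Panx2* ran the other way, with 0.275 and 4.24 (wild-type) against 23.6 and 12.96 (homozygous) in the basal turn, and a difference between turns of 4.73 ± 0.90 (adjusted p = 0.00747). With each library left out in turn, the *Gjb6* call held in 1 of 12 fits (−2.40 to −1.75) and that of *Panx2* in 3 of 12 (3.71 to 5.75). Without the second wild-type basal library *Gjb2* was at −2.32 (adjusted p = 0.0179) in the basal turn, and without the first at −1.56 (adjusted p = 0.129).

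The 19 genes of signal transduction below the P2Y receptors were all tested. In the basal turn 1 was called higher and 1 lower. *Itpr1*, which codes for a calcium release channel of the endoplasmic reticulum, was at 57.2 and 40.9 scaled FPKM (wild-type) against 17.2 and 6.44 (homozygous) in the basal turn, and fell by 2.09 on the log2 scale (SE 0.38, adjusted p = 0.0098). *Plcb1*, a phospholipase C gene, was at 1.07 and 1.99 (wild-type) against 5.59 and 4.64 (homozygous) in the basal turn, and rose by 1.295 ± 0.22 (adjusted p = 0.00808). Its difference between the basal and middle turns was 2.44 ± 0.31 (adjusted p = 0.0026), and that of *Slc29a2* was 2.18 ± 0.33 (adjusted p = 0.00372). Of the 12 fits that left out 1 library, the basal call of *Itpr1* held in 2 and that of *Plcb1* in 1, while the call between turns held in 11 for *Plcb1* and in 8 for *Slc29a2*. Without the first wild-type basal library the basal values of *Itpr1* (−1.85, adjusted p = 0.0536) and *Plcb1* (1.03, adjusted p = 0.0356) were not called, and without the second both were (−2.32 and 1.56). *Gnai2* had the highest mean of this list, 103 scaled FPKM, and was not called.

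**Figure D5:**
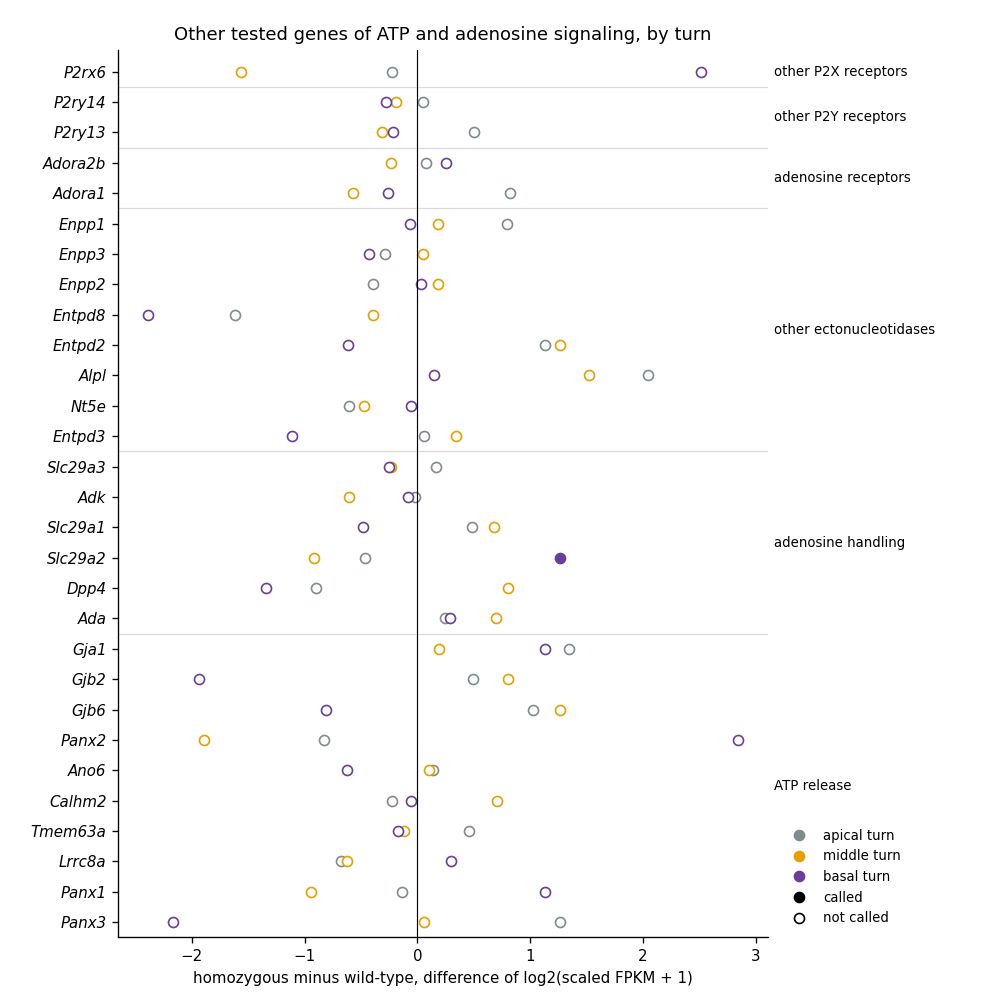
Difference of log2(scaled FPKM + 1) between homozygous and wild-type libraries (horizontal axis) for the tested genes of 6 lists, by turn. Filled points were called. The only filled point is *Slc29a2* in the basal turn, and *P2rx6* and *Panx2* lie farthest to the right, both in the basal turn.

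The genes whose level ran most like that of a tested gene over the 12 libraries are given as a description, by Pearson's r of log2(scaled FPKM + 1) among other tested genes that averaged 5 scaled FPKM or more. The libraries differ in turn, genotype and levels of cell type markers, and no test was made. *P2rx2* was most like *Tmprss3* (r = 0.995), a serine protease gene of hearing, followed by *Ntn4* (0.991) and *Mal2* (0.987). *P2rx4* was most like *Adam15* (0.902), *Rassf2* (0.873) and *Tssc4* (0.872). Genes like *P2rx7* included *Tcaf1* (0.963) and *Cltc* (0.957), which codes for clathrin heavy chain. *P2ry1* was most like *C1ra* (0.953), *Papss2* (0.951) and *Flrt2* (0.946), and *P2ry2* was most like *Srebf1* (0.971), *Tmem248* (0.949) and *Large2* (0.942). *P2ry6* was most like *Ift27* (0.939), the complement gene *C1qa* (0.931) and *Pepd* (0.921). *P2ry12* was most like *Gpd1* (0.951), *Evi2a* (0.938) and *Slain1* (0.937), and *Entpd1* was most like *Eln* (0.930), *3110040N11Rik* (0.892) and *Gpc1* (0.873). Among the 8 genes themselves, the highest r was that of *P2rx2* with *P2ry1* (0.793) and the lowest that of *P2ry12* with *P2ry2* (−0.682). The wild-type basal library that was low for *P2rx2* was low for *P2ry1* and *P2ry2* as well, and high for *P2ry12*.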

How the data were processed

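Total RNA of the apical, middle, and basal turns was sequenced by the authors, who trimmed reads with fastp 0.20.0, aligned them to mm10 with STAR 2.7.3a and calculated FPKM with StringTie 2.0, per the paper's methods and the submitters' processing notes. The deposited values are FPKM of 37432 genes. Counts and the DESeq2 results of the authors were not used here, and depth, annotation version and strand setting are not given in the sources used here. Scaling used 1 median-of-ratios factor per library, from 11552 genes. Genes entered the fit if they reached 1 FPKM in 2 libraries (16215 did). The model (limma 3.58.1 in R 4.3.3) had 6 group means for log2(scaled FPKM + 1), eBayes with a trend, 6 residual degrees of freedom and 2.78 from the prior. Tests were two-sided with Benjamini-Hochberg adjustment over all genes fitted, and calls needed 0.01 for the adjusted p and 2 for the fold change. The fit was tested on simulated data. The 10 genes and all lists were chosen with earlier results of these data known. Named genes were the 10, the called, highest and connexin genes of the pathway lists, the 3 genes of highest r with each, and the leading markers, some of which are not reported here. Promoter windows are from RefSeq (GRCm38.p6) and transcripts from GENCODE. The windows matched 7 of the 10 genes, and *P2rx2*, *P2rx3* and *P2ry6* had none. Alternatives were a pseudocount of 0.1, no filter, unscaled FPKM, the repeat number as a block, only the groups compared, an adjusted p under 0.05 and each library left out. Figures used matplotlib 3.10.9.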

Additional observations from a re-analysis of the deposited data

Results flagged for a closer look

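Of the 8 tested genes, 2 had a genotype difference that differed between turns by the test of that difference itself in the reported fit. For *P2rx2* the homozygous minus wild-type difference was −4.94 on the log2 scale in the basal relative to the middle turn (SE 0.97, adjusted p = 0.00852), since it was −5.09 in the basal and −0.15 in the middle turn. Levels in the 4 basal libraries were 131 and 26.6 (wild-type) and 1.88 and 0.0846 (homozygous) scaled FPKM. For *P2rx7* the difference was 1.67 (SE 0.32, adjusted p = 0.00834), from 1.05 in the basal and −0.62 in the middle turn. Of all genes, 8.91% were called in the same comparison. Neither call held with no filter or with only the groups compared. With 1 of the 12 libraries left out, the *P2rx2* call was lost in 10 fits and the *P2rx7* call in all 12. In the basal turn 3 of 12 supporting cell and sulcus markers were called lower. In the basal against the middle turn 6 of them were called lower, *Gjb6* included, and 1 higher. Over all 16215 genes, 286 were called lower in the basal turn, with 418 lower and 1027 higher in the basal against the middle turn. The sums of the neuron markers and of the Schwann cell and myelin markers were lower in the homozygous middle and higher in the homozygous basal turn, as *P2rx7* was. The part of these lists was not tested.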

How the results depend on the processing

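The call of *P2rx2* in the basal turn held with a pseudocount of 0.1, with FPKM as deposited and with the repeat number as a block, and was lost (0 of the 8 genes called) with no filter and with only the groups compared, where all genes called were 89 of 36005 and 0 of 16215, beside 696 of 16215 in the reported fit. For the basal minus middle difference, 1 of the 8 genes was called with a pseudocount of 0.1 (*P2rx7*), 1 with FPKM as deposited and 1 under the block (*P2rx2* in both), and 0 with no filter or only the groups compared. At an adjusted p under 0.05, 2 genes were called in the basal turn (*P2rx2* and *P2rx7*) and 1 (*P2rx2*) over the mean of the turns. Same-numbered libraries did not deviate in a common direction (correlation −0.07 apical, −0.01 middle, 0.21 basal between genotypes, −0.41 to 0.27 between turns of a genotype), so the numbers were not used as pairs. Between groups that differ in both genotype and turn, the correlations ran from −0.43 to 0.45. They thus cannot show whether libraries share animals. With the repeat number as a block, all genes called were 12 (apical), 12 (middle), 177 (basal) and 34 (mean of the turns). A block with the numbers crossed between the wild-type middle and basal turns, a pairing chosen after seeing the data, was fitted on those groups alone. It called 0 genes, as did the uncrossed block and the fit with no block, so these counts cannot show whether the pairing matters. At an unadjusted p under 0.05 by limma there were 1814 genes (crossed), 1125 (uncrossed) and 1468 (no block). All genes called in the apical turn were 29 as reported, 13 with a pseudocount of 0.1, 17 with no filter and 93 with only the groups compared. In the middle turn they were 29, 19, 15 and 0, and over the mean with no filter 26. FPKM as deposited moved the median of all genes from 0.04 to 0.17 in the middle turn, and there *P2rx2* (0.021) and *P2ry6* (0.10) changed sign, as did *P2ry2* over the mean (0.013) and between the middle and apical turns (0.072), and *P2rx4* (−0.046) and *P2rx7* (−0.11) between the wild-type middle and apical turns. *P2rx7* over the mean was −0.0029 with a pseudocount of 0.1. With each library left out in turn, all genes called ranged from 4 to 45 (apical), 5 to 49 (middle), 36 to 1826 (basal) and 14 to 296 (mean), and of the 8 genes 0 to 2 were called in the basal turn, 0 to 1 over the mean, 0 to 1 for basal minus apical and 0 to 1 for basal minus middle. The log2 differences whose sign changed with a library left out were these, none of them called in the reported fit. In the middle turn they were *P2rx2* −0.40 to 0.11, *P2ry12* −1.22 to 0.40, *P2ry6* −0.16 to 0.12. In the basal turn they were *P2rx4* −0.015 to 0.12, *P2ry12* −0.23 to 0.91. Over the mean they were *P2rx7* −0.078 to 0.091, *P2ry12* −0.046 to 0.49, *P2ry2* −0.21 to 0.11, *P2ry6* −0.030 to 0.086. For middle minus apical they were *P2rx4* −0.11 to 0.15, *P2rx7* −0.46 to 0.043, *P2ry2* −0.24 to 0.14. For basal minus apical they were *P2ry1* −0.52 to 0.75, *P2ry12* −0.97 to 0.17. For basal minus middle they were *P2ry1* −1.21 to 0.057, *P2ry12* −0.063 to 1.56. For wild-type middle minus apical they were *P2rx4* −0.045 to 0.20, *P2rx7* −0.13 to 0.14, *P2ry2* −0.36 to 0.020. For wild-type basal minus apical they were *P2rx2* −2.20 to 0.062, *P2ry1* −1.20 to 0.067, *P2ry2* −0.51 to 0.43. For wild-type basal minus middle they were *Entpd1* −0.013 to 0.19, *P2rx2* −0.996 to 1.26, *P2ry1* −0.83 to 0.44, *P2ry12* −0.76 to 0.86, *P2ry2* −0.34 to 0.61. A group with a library left out holds 1 library, which is assumed to vary like those of the other groups. The largest basal counts were those without the second wild-type basal library, and the cause of the changes was not tested. Unknown depth and 2 libraries a group limit all values.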
